A study of Mus musculus with 10 samples.

Results

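The nuclear genes of the mitochondrial respiratory chain and the ATP synthase were compared between 2 kinds of mouse macrophage, with and without bacterial lipopolysaccharide (LPS). Members were all genes of the deposited expression table whose symbols begin with Nduf, Sdha to Sdhd, Uqcr, Cox4 to Cox8 or Atp5, together with Cyc1 and Cycs, without regard to their values. This gave 94 of 13809 genes, and all 94 were abundant enough to be tested. By symbol they divide into 36 complex I subunits with 7 complex I assembly factors, and 4 complex II subunits with 4 complex II assembly factors. The others are 9 complex III subunits, cytochrome c (Cycs), 15 complex IV subunits, Ndufa4, 15 ATP synthase subunits, and Atp5s and Atp5sl. These last 2 are classed as ATP synthase accessory genes by symbol only. The annotation names Atp5sl Dmac2, so its symbol does not settle which complex it serves. No member is a pseudogene by symbol, and the subunits encoded by mitochondrial DNA are not analysed here.

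RNA was sequenced from bone marrow macrophages of C57BL/6 mice aged 12 weeks. Resident macrophages, labelled CD163-positive, were the ferromagnetic cells that stayed on a magnetic column without staining, so the magnetic property and not an antibody defined them. Bone marrow derived macrophages (BMDM), labelled CD163-negative, were grown from the cells that passed through the column with 20% L929 cell supernatant, over 6 days according to the protocol, where the titles give 7. The groups were 3 libraries of resident macrophages given LPS at 1 µg/ml for 4 h, 3 of untreated resident macrophages, 2 of BMDM given the same LPS and 2 of untreated BMDM. Nothing in the labels ties the libraries of a group to different mice or cultures. A p-value below therefore reflects variation among these 10 libraries, which may be technical. Only resident replicate 1, with and without LPS, held Y-linked transcripts, so its cells cannot all come from the animals of replicates 2 and 3. The spread among resident libraries is thus not only technical.

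Complexes I and II take electrons from NADH and succinate, complex III passes them to cytochrome c, and complex IV reduces oxygen, while the ATP synthase uses the proton gradient that results. Assembly factors insert cofactors and join modules without staying in the finished complex. Macrophages activated by LPS are known to change how they use this chain, and succinate oxidation at complex II is one of the steps studied most.

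Values are normalized reads, meaning read counts divided by 1 factor per library, and the depth recovered from them was 27.1 to 37.7 M reads. All 8 macrophage markers examined were detected in both origins. Of these, 4 were called higher and 4 lower in untreated resident macrophages than in untreated BMDM, and 3 higher and 4 lower in LPS-treated ones. Adgre1, the F4/80 antigen, had 15389.9, 11165 and 11436 normalized reads in LPS-treated and 18056, 10692 and 10457 in untreated resident macrophages, against 37213 and 35511 in LPS-treated and 27867 and 25467 in untreated BMDM, where it was higher. Cd163 had 6476, 4131 and 4918 normalized reads in LPS-treated resident macrophages and 10740.4, 5282 and 6487 in untreated resident macrophages, against 14.4 and 14.9 in LPS-treated BMDM and 41.9 and 53.9 in untreated BMDM. Resident libraries also held markers of other bone marrow cells. There 10 neutrophil markers summed to between 1.01% and 1.22% of all values with LPS and between 0.673% and 1.42% without, against 0.00124% to 0.00216% in BMDM. The 8 macrophage markers summed to less in resident libraries, 0.379% to 0.427% with LPS and 0.434% to 0.559% without. In BMDM the macrophage markers summed to 0.393% to 0.397% with LPS and 0.480% to 0.529% without. The markers called higher in resident than in BMDM libraries, in both treatments, were 10 of 10 neutrophil, 9 of 9 erythroid, 7 of 7 B lineage, 5 of 5 megakaryocyte and 5 of 5 T and NK markers, and in BMDM Ly6g and Hbb-bt were at the floor of the table. Values given for resident macrophages are those of whole resident libraries, with any other cells included. The part of other cells in the origin comparisons was not tested. In bulk RNA, fewer cells of a type and less RNA per cell cannot be told apart. Of the 6 resident libraries, 2 carried Y-linked transcripts (LPS-treated replicate 1 and untreated replicate 1), with Ddx3y at 1975 and 1856 normalized reads. In all other libraries, BMDM included, Ddx3y was at the floor, so the origin comparisons are not balanced for sex. LPS-treated replicate 1 had the highest value of its group for 68 of the 94 members while replicate 3 had the lowest for 70.

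As a share of each library's total, the 94 members held 0.535%, 0.537% and 0.496% in LPS-treated resident macrophages and 0.572%, 0.637% and 0.619% in untreated resident macrophages. They held 0.625% and 0.607% in LPS-treated BMDM and 0.838% and 0.804% in untreated BMDM. Untreated BMDM stood above all other libraries, LPS-treated libraries stood below the untreated ones of the same origin, and resident libraries stood below BMDM libraries of the same treatment. Untreated resident and LPS-treated BMDM libraries overlapped. Complex I alone held 0.106 ± 0.00481%, 0.131 ± 0.0110%, 0.132 ± 0.00206% and 0.198 ± 0.00711% (SD, n = 3, 3, 2 and 2) in LPS-treated resident, untreated resident, LPS-treated BMDM and untreated BMDM libraries. Cycs ran otherwise, with its highest share in LPS-treated BMDM, at 0.0266% and 0.0246%, against 0.0125% and 0.0122% in untreated BMDM.

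Per kb of annotated transcript, the median member had 1325 normalized reads in LPS-treated and 1433 in untreated resident macrophages, against 1977 in LPS-treated and 1780.0 in untreated BMDM. Per kb, Atp5b, the catalytic beta subunit of the ATP synthase, was highest in LPS-treated resident cells at 9964. Cox4i1, a nuclear subunit of complex IV, was highest in the other groups, at 11759 in untreated resident cells, 12199 in LPS-treated BMDM and 11862 in untreated BMDM.

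**Figure D1:**
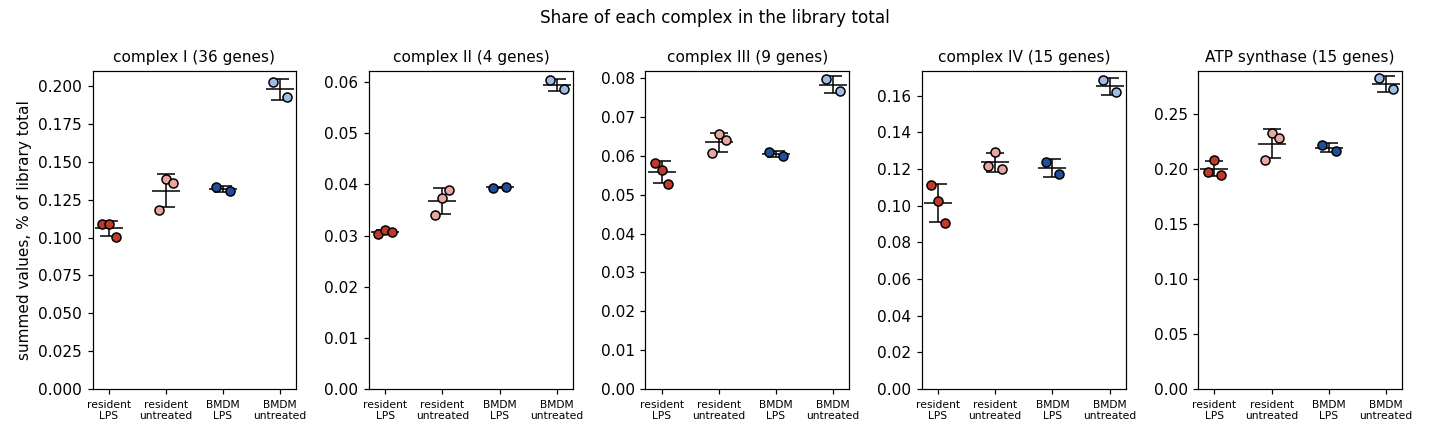
Summed values of each complex as a percentage of the library total (y axes, from 0), for LPS-treated and untreated resident macrophages and LPS-treated and untreated BMDM (x axes). Points are libraries and bars are the group mean ± SD. For complexes I to IV and the ATP synthase the 2 untreated BMDM libraries lie highest, for complex I at 0.203% and 0.193%.

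The shares of library totals do not use the deposited scaling between libraries. All normalized reads do, above and below, and so do the values per kb. Log2 changes below use it unless another scaling is named. The deposited values sum to 38.8 and 38.6 M in LPS-treated BMDM but 24.7 and 26.0 M in untreated BMDM, so a gene with an even share in both has a higher deposited value after LPS. On the deposited scale the members summed to 242450 and 234257 normalized reads in LPS-treated BMDM, against 206878 and 208583 in untreated BMDM, the opposite order to the shares. With equal totals the median log2 change of all genes tested was -0.64 for LPS in BMDM, where it was -0.04 as deposited, and 0.35 for origin in LPS-treated cells, where it was 0.03 as deposited. For LPS in resident macrophages it was -0.12 with equal totals and 0.00 as deposited, and for origin in untreated cells -0.08 and 0.08. The member median minus the all-gene median was 0.11 for LPS in BMDM as deposited, 0.09 with equal totals and -0.12 under quantile normalization. For origin in untreated cells it was -0.54 as deposited, -0.54 with equal totals and -0.49 under quantile normalization. Differences below were tested with limma on log2(value + 1) with p-values adjusted over all genes, and a gene was called at an adjusted p under 0.05. Log2 changes are given ± SE.

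**Figure D2:**
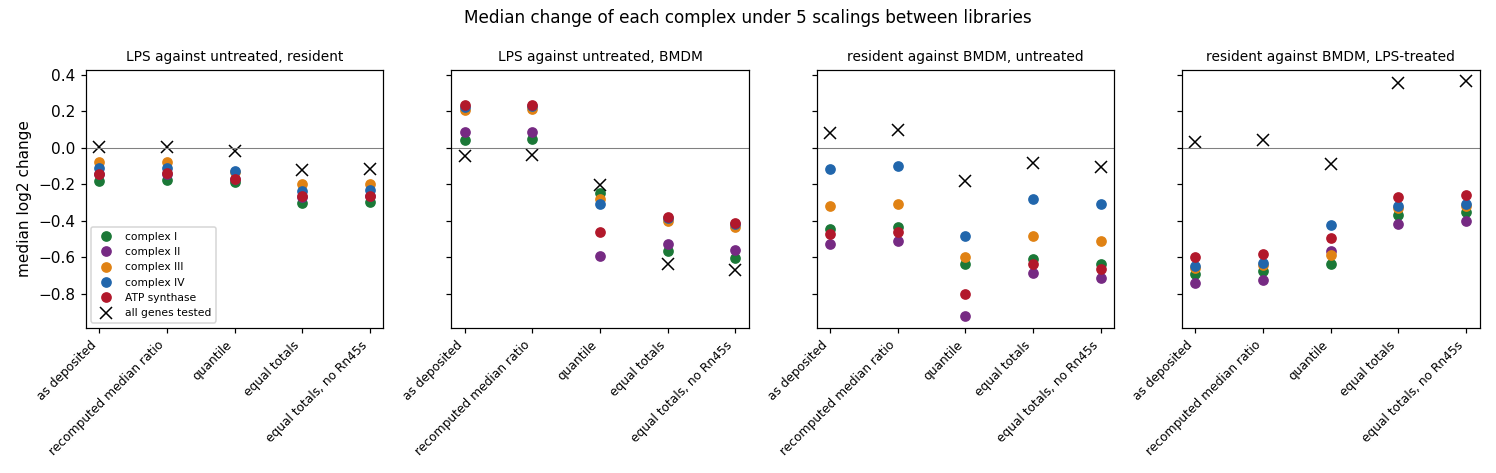
Median log2 change of each complex (coloured points) and of all genes tested (crosses) in 4 comparisons, under 5 scalings between libraries (x axes). For LPS in BMDM the complexes lie above 0 under the deposited factors and below 0 with equal totals, while the origin comparisons keep every complex below 0.

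Without LPS, most chain genes were lower in resident macrophages than in BMDM. Of the 94 members 66 were called lower and 4 higher, which is 70.2% and 4.26%, where 32.6% of all genes tested were lower and 39.2% higher (71.9% in all). The member median was -0.46 on the log2 scale, against 0.08 for all genes. Called lower were 28 of 36 complex I subunits, 4 of 4 complex II, 5 of 9 complex III, 7 of 15 complex IV and 11 of 15 ATP synthase subunits. All 66 kept a negative sign under the 5 scalings, and 70 members had every resident library below both BMDM libraries, 74.5% where 38.3% of all genes did, and 8 had them above, 8.51% where 44.4% did.

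Among the core subunits of complex I, Ndufs1, which carries iron-sulphur clusters of the matrix arm, had 1318, 1358 and 1429 normalized reads in untreated resident macrophages, against 2349 and 2417 in untreated BMDM. The groups did not overlap (log2 difference -0.80 ± 0.07, adjusted p = 2.8e-06). Ndufs3, another core subunit of that arm, had 944, 927 and 898 normalized reads in untreated resident macrophages, against 1349 and 1430.4 in untreated BMDM (log2 difference -0.59 ± 0.07, adjusted p = 4.5e-05). Ndufv1, which binds NADH, also fell below BMDM without overlap (log2 difference -0.40 ± 0.07, adjusted p = 0.00061). The lowest of the complex was Ndufc1, an accessory subunit of the membrane arm, with 287, 378 and 355 normalized reads in untreated resident macrophages, against 799 and 796 in untreated BMDM (log2 difference -1.24 ± 0.14, adjusted p = 1.9e-05).

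Ndufs8 went the other way. This core subunit binds iron-sulphur clusters close to the quinone site, and it had 1323, 1185 and 1202 normalized reads in LPS-treated and 1758, 1599.7 and 1675 in untreated resident macrophages, against 763 and 772 in LPS-treated and 1101 and 1051 in untreated BMDM. Each resident library lay above every BMDM library (log2 difference 0.64 ± 0.08, adjusted p = 4.2e-05 in untreated cells, log2 difference 0.69 ± 0.08, adjusted p = 2.6e-05 in LPS-treated cells). It was the only complex I subunit called higher in resident macrophages in either treatment, and the untreated difference was called under all 25 alternatives that were run. Ndufs7, which lies beside it in the complex and was added after its values were seen, was called lower in resident cells. The Ndufs8 to Ndufs7 ratio was 1.69, 1.67 and 1.70 in LPS-treated and 1.90, 1.65 and 1.75 in untreated resident libraries. In BMDM that ratio was 0.644 and 0.699 with LPS and 0.771 and 0.763 without.

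All 4 complex II subunits were lower in untreated resident macrophages. Sdhb, the iron-sulphur subunit, had 1972, 1987 and 2019 normalized reads in untreated resident macrophages, against 3533 and 3972 in untreated BMDM, the largest difference of the 4 (log2 difference -0.91 ± 0.09, adjusted p = 5.6e-06). Sdhc, a membrane anchor, followed (log2 difference -0.70 ± 0.06, adjusted p = 4.7e-06), then Sdha, the flavoprotein (log2 difference -0.36 ± 0.07, adjusted p = 0.00072), and Sdhd, the other anchor (log2 difference -0.33 ± 0.10, adjusted p = 0.012). Of the assembly factors, Sdhaf4, which binds flavinylated Sdha, had 101, 143 and 113 normalized reads in untreated resident macrophages, against 314 and 349 in untreated BMDM (log2 difference -1.48 ± 0.21, adjusted p = 0.00011). Sdhaf3, involved in the maturation of Sdhb, was scarce, with 14.3, 27.5 and 23.8 normalized reads in untreated resident macrophages, against 55.6 and 66.7 in untreated BMDM (log2 difference -1.49 ± 0.32, adjusted p = 0.0019). Sdhaf1 was not called between the untreated origins, with 256, 222 and 238 normalized reads in untreated resident macrophages, against 278 and 252 in untreated BMDM, and these ranges overlapped.

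Complex III was divided. Called lower were Uqcr10, Uqcr11, Uqcrb and Uqcrh, small subunits of the complex, and Uqcrfs1. Uqcrfs1, the Rieske iron-sulphur protein, had 1759, 1611 and 1552 normalized reads in untreated resident macrophages, against 1946 and 2151 in untreated BMDM (log2 difference -0.32 ± 0.12, adjusted p = 0.034). Uqcrc2, a core subunit, had 3373, 3135 and 3030.1 normalized reads in untreated resident macrophages, against 2746 and 2806 in untreated BMDM and was slightly higher in resident cells (log2 difference 0.19 ± 0.07, adjusted p = 0.032), though its sign turned to -0.14 under quantile normalization and 19.7% of its exon bases overlap Pdzd9 on the opposite strand. Uqcrc1, its partner, and Cyc1, the cytochrome c1 subunit, were not called. Uqcrc1 had 3722, 3904 and 3669 normalized reads in untreated resident macrophages, against 3539 and 3627 in untreated BMDM, and Cyc1 had 2517, 2429.9 and 2349.9 normalized reads in untreated resident macrophages, against 2335 and 2304 in untreated BMDM. Cycs had 3696, 3929 and 3276 normalized reads in untreated resident macrophages, against 3097 and 3160.5 in untreated BMDM, with every resident library above both BMDM libraries, but was not called. The calls of Uqcrc2 and Uqcrfs1 were lost in 8 and 7 of the 25 alternatives, apart from the change of sign of Uqcrc2.

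In the ATP synthase the catalytic head divided. Atp5a1 and Atp5b, the alpha and beta subunits, were not called, and Atp5b had 18855, 18660.0 and 18517 normalized reads in untreated resident macrophages, against 16335 and 16609.5 in untreated BMDM. Atp5c1, the gamma subunit of the central stalk, had 2328, 2432 and 2400.4 normalized reads in untreated resident macrophages, against 4034 and 4002 in untreated BMDM (log2 difference -0.75 ± 0.07, adjusted p = 4.5e-06). Atp5o, the stator subunit known as OSCP, was also lower (log2 difference -0.18 ± 0.07, adjusted p = 0.031). The c ring is encoded by 3 genes with the same mature protein: Atp5g1 (log2 difference -0.60 ± 0.08, adjusted p = 8.5e-05) and Atp5g2 (log2 difference -0.63 ± 0.09, adjusted p = 0.00012) were lower, while Atp5g3 was not called, with 5305, 4727 and 3881 normalized reads in untreated resident macrophages, against 4013 and 4313 in untreated BMDM. The Atp5o call was lost in 7 of 25 alternatives. The annotation holds 2 entries under the Atp5o symbol. Of the exon bases of the entry used here, 100% overlap the other Atp5o entry or Donson, both on the same strand. How much of this falls to Donson was not separated, so reads may be shared.

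Of the 94 members Cox4i2, Cox6a2 and Cox7a1, isoforms of complex IV known from special tissues, had the largest fitted log2 differences between the origins in untreated and in LPS-treated cells on the deposited scale. Cox4i2, an alternative to Cox4i1 described as responsive to low oxygen, had 33.2, 19.3 and 19.6 normalized reads in LPS-treated and 45.5, 34.2 and 30.5 in untreated resident macrophages, against 1.0 and 1.0 in LPS-treated and 2.73 and 2.74 in untreated BMDM. In untreated BMDM each value stands for 3 reads, and the resident to BMDM ratio was 13.5 (95% exact interval 6.01 to 37.5, counting error only). After LPS both BMDM libraries were at the floor, and Cox4i2 was at least 6.96-fold higher in resident cells, taking 3 reads per BMDM library as the limit. Cox4i1 itself was not called between untreated origins, with 10063, 8854 and 8071 normalized reads in untreated resident macrophages, against 8800.3 and 9349 in untreated BMDM.

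Cox6a2, the heart and muscle isoform of Cox6a, had 97.9, 136 and 125 normalized reads in LPS-treated and 103, 135 and 165 in untreated resident macrophages, against 17.5 and 16.3 in LPS-treated and 10.0 and 20.1 in untreated BMDM. Every resident library exceeded every BMDM library, and the log2 differences were 3.12 ± 0.31 (SE) in untreated and 2.74 ± 0.31 in LPS-treated cells. Of its exon bases 10.3% overlap the opposite-strand gene Itgad, an integrin subunit, which had 14647, 12937 and 16128 normalized reads in LPS-treated and 21161, 14966 and 16975 in untreated resident libraries, against 148 and 153 in LPS-treated and 140 and 136 in untreated BMDM. The sources used here do not state whether counting used strand, so reads of Cox6a2 and Itgad cannot be told apart. Cox6b2, the testis isoform of Cox6b, was called higher after LPS, with 26.8, 30.1 and 39.3 normalized reads in LPS-treated resident macrophages, against 11.3 and 12.2 in LPS-treated BMDM (log2 difference 1.36 ± 0.44, adjusted p = 0.018), a call lost in 5 of 24 alternatives. Cox7a1, the muscle isoform of Cox7a, was lower in resident cells, with 16.6, 16.1 and 8.83 normalized reads in LPS-treated and 8.03, 14.2 and 13.3 in untreated resident macrophages, against 47.3 and 43.3 in LPS-treated and 52.9 and 53.0 in untreated BMDM (log2 difference -2.10 ± 0.35, adjusted p = 0.00032 in untreated cells).

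Of the 15 complex IV genes 7 were called lower and 2 higher in untreated resident cells, 46.7% and 13.3%, where 32.6% and 39.2% of all genes were. Of the subunits not tied to a special tissue, Cox7a2 (log2 difference -0.48 ± 0.13, adjusted p = 0.0065), Cox7c (log2 difference -0.63 ± 0.12, adjusted p = 0.001) and Cox6c (log2 difference -0.62 ± 0.12, adjusted p = 0.00098) were called lower, and Cox8a was called lower with a smaller difference (log2 difference -0.33 ± 0.13, adjusted p = 0.036), lost in 7 of 25 alternatives. Cox7a2l, a factor for supercomplexes of III and IV, had 3129, 2727 and 2589 normalized reads in untreated resident macrophages, against 5255 and 5601 in untreated BMDM (log2 difference -0.95 ± 0.12, adjusted p = 5.7e-05). Ndufa4, once assigned to complex I and now regarded as a complex IV subunit, was lower too (log2 difference -0.53 ± 0.11, adjusted p = 0.0013). Cox6a1, Cox6b1, Cox5a and Cox4i1 were not called between untreated origins. Exons of 14 members overlap another annotated gene entry by 10% or more of their bases, so their values are less certain. Among them are also Ndufaf2 (65.6%), Ndufb6 (39.0%), Ndufa13 (30.0%), Cox5a (12.8%) and Sdhaf4 (12.7%).

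**Figure D3:**
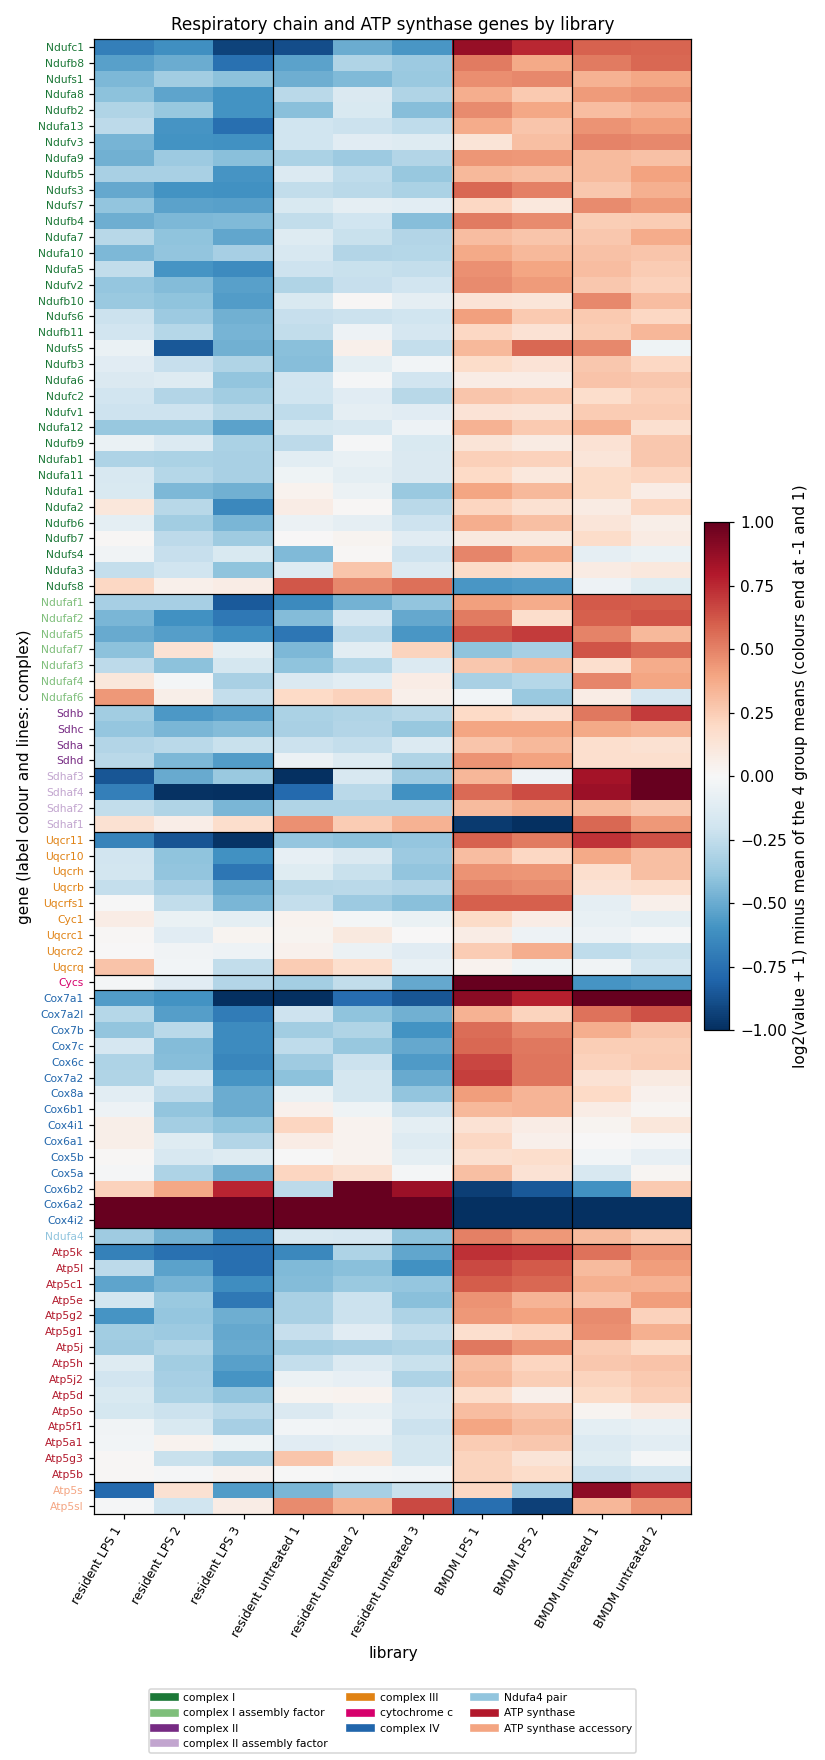
The members (rows, 1 of the 94 not drawn, coloured by complex and divided by lines) in each library (columns, LPS-treated then untreated resident macrophages, then LPS-treated and untreated BMDM), as log2(value + 1) minus the mean of the 4 group means. Colours end at -1 and 1. Most rows are below their mean in resident and above it in BMDM libraries, and Cox4i2, Cox6a2 and Ndufs8 run the opposite way in every library.

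Among LPS-treated cells most members were again lower in resident macrophages than in BMDM. Of the 94 members 77 were called lower in resident macrophages and 6 higher, 81.9% and 6.38%, where 34.5% of all genes were lower and 36.7% higher (71.3% in all). The member median was -0.66, against 0.03 for all genes, and 81 members had every resident library below both BMDM libraries, 86.2% where 40.2% of all genes did, and 6 had them above, 6.38% where 42.3% did. Between treatments 62 members were lower in both, 3 were higher in both (Cox4i2, Cox6a2 and Ndufs8), and Uqcrc2 was higher in untreated and lower in LPS-treated resident cells. Called lower were 35 of 36 complex I subunits, with Ndufs8 as the exception, and 14 of 15 ATP synthase subunits. Of the 77, 6 changed sign under a scaling, among them Atp5a1, at 0.05 with quantile normalization and with equal totals.

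Cycs was among the 77 lower members, with 4613, 4319 and 3811 normalized reads in LPS-treated resident macrophages, against 10318 and 9505 in LPS-treated BMDM (log2 difference -1.23 ± 0.10, adjusted p = 2.5e-06). The largest negative differences after LPS were those of Cox7a1 (log2 difference -1.69 ± 0.35, adjusted p = 0.0014), Sdhaf4 (log2 difference -1.60 ± 0.21, adjusted p = 6.4e-05), Ndufc1 (log2 difference -1.55 ± 0.14, adjusted p = 3.9e-06) and Atp5k, the e subunit of the ATP synthase, which had 449.8, 429 and 427 normalized reads in LPS-treated resident macrophages, against 1196 and 1173 in LPS-treated BMDM (log2 difference -1.44 ± 0.10, adjusted p = 9e-07). Ndufs3 had 785, 741 and 734 normalized reads in LPS-treated resident macrophages, against 1664 and 1590.2 in LPS-treated BMDM (log2 difference -1.11 ± 0.07, adjusted p = 4.9e-07), and Atp5c1 had 2178, 2276 and 2040.4 normalized reads in LPS-treated resident macrophages, against 4781 and 4673 in LPS-treated BMDM (log2 difference -1.13 ± 0.07, adjusted p = 2.7e-07). Resident libraries lay below BMDM for each of these without overlap. Complex II kept its difference, with log2 values of -0.56 for Sdha, -0.66 for Sdhb, -0.82 for Sdhc and -0.85 for Sdhd. Sdhaf1 (log2 difference 1.12 ± 0.13, adjusted p = 2.6e-05) and Atp5sl, which the annotation names Dmac2 (log2 difference 0.80 ± 0.14, adjusted p = 0.0004), were higher in LPS-treated resident cells than in LPS-treated BMDM.

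Within resident macrophages few members were called after LPS, all lower. Of the 94, 8 were called lower and 0 higher with limma, 8.51% where 5.57% of all genes were lower and 7.36% higher (12.9% in all), and the member median was -0.14 against 0.00 for all genes. At an unadjusted p under 0.05, limma gave 25 lower and 1 higher (Cycs), and limma with voom weights called 8 lower and 0 higher. Of the 8 falls, 6 belong to complex I. At the level of libraries, 26 members had all 3 LPS-treated values below all 3 untreated values, which is 27.7% where 13.3% of all genes did, and 1 (Atp5a1) had them above, 1.06% where 13.8% did.

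Ndufs8 had 1323, 1185 and 1202 normalized reads in LPS-treated resident macrophages, against 1758, 1599.7 and 1675 in untreated ones (log2 change -0.44 ± 0.07, adjusted p = 0.004). Ndufv3, an accessory subunit of the NADH-binding tip, had 484, 440.0 and 439.7 normalized reads in LPS-treated resident macrophages, against 581, 618 and 612 in untreated ones (log2 change -0.41 ± 0.08, adjusted p = 0.011), and Ndufs3 had 785, 741 and 734 normalized reads in LPS-treated resident macrophages, against 944, 927 and 898 in untreated ones (log2 change -0.29 ± 0.07, adjusted p = 0.018). Uqcr11, a small complex III subunit, had 635, 555 and 509 normalized reads in LPS-treated resident macrophages, against 771, 758 and 769 in untreated ones (log2 change -0.44 ± 0.09, adjusted p = 0.01). Atp5sl had 288, 253 and 306 normalized reads in LPS-treated resident macrophages, against 403, 371 and 458 in untreated ones (log2 change -0.54 ± 0.12, adjusted p = 0.018). The other 3, chosen for mention after their values were seen, were Ndufs7 (log2 change -0.38 ± 0.07, adjusted p = 0.0084), Ndufb10 (log2 change -0.37 ± 0.08, adjusted p = 0.017) and Ndufa8 (log2 change -0.27 ± 0.08, adjusted p = 0.043), all complex I subunits. For each of the 8 genes the LPS-treated libraries lay below the untreated ones without overlap.

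The core subunits of the other complexes were not called in resident macrophages after LPS. Cycs had 4613, 4319 and 3811 normalized reads in LPS-treated resident macrophages, against 3696, 3929 and 3276 in untreated ones, and Sdhb had 1926, 1642 and 1685 normalized reads in LPS-treated resident macrophages, against 1972, 1987 and 2019 in untreated ones. Sdha had 4113, 4169 and 4315 normalized reads in LPS-treated resident macrophages, against 4342, 4267 and 4568 in untreated ones, and its ranges overlapped. No member of complex II, complex IV or the ATP synthase was called by limma, where an unadjusted p under 0.05 marked 2, 1 and 5 of them, all lower. The count of 8 was not stable: it was 17 without LPS-treated replicate 1, 5 without LPS-treated replicate 2, 26 with both Y-carrying libraries left out, 21 with a term for them, 34 with equal totals (where 12.7% of all genes were lower), and 1 when only the resident groups were fitted. All 8 kept a negative sign under the 5 scalings.

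In BMDM the response to LPS was mixed on the deposited scale, with 18 members called higher and 10 lower, 19.1% and 10.6%, where 28.3% of all genes were higher and 29.5% lower (57.8% in all). The member median was 0.06 against -0.04 for all genes. Both LPS-treated libraries lay above both untreated ones for 44 members, 46.8% where 39.7% of all genes did, and below them for 28, 29.8% where 44.7% did. Under the other scalings 17 of the 18 rises turned negative in at least 1, and Cycs alone kept its sign in all 5. All 10 falls kept theirs. With equal totals 1 member was called higher and 81 lower, where 15.8% of all genes were higher and 56.9% lower. Under quantile normalization 3 members were called higher and 52 lower, where 22.5% of all genes were higher and 33.7% lower. The number of rises was 7 and 9 without LPS-treated replicate 1 and 2 and 9 and 7 without untreated replicate 1 and 2, and the number of falls was 6 without untreated replicate 1.

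Cycs encodes cytochrome c, the mobile carrier between complexes III and IV that also takes part in apoptosis. It had 10318 and 9505 normalized reads in LPS-treated BMDM, against 3097 and 3160.5 in untreated BMDM (log2 change 1.66 ± 0.11, adjusted p = 5.1e-07). The log2 change lay between 0.90 and 1.72 over 25 alternatives and was called in each. Set against Cyc1, its partner at complex III, the Cycs to Cyc1 ratio, which a scaling by 1 factor per library does not alter, was 3.68 and 3.66 in LPS-treated and 1.33 and 1.37 in untreated BMDM. In resident macrophages it was 1.78, 1.83 and 1.65 with LPS and 1.47, 1.62 and 1.39 without, so those groups did not overlap either. Quantile normalization does alter the ratio, and with it the log2 change after LPS in BMDM was 0.90 for Cycs and -0.27 for Cyc1. The annotation lists pseudogene entries under the Cycs symbol, and reads shared with them cannot be told apart. The same holds for Atp5c1, Atp5k, Atp5l, Ndufab1 and Uqcrh, which makes 6 members with Cycs. Only entries named after the member's own symbol were searched. Pseudogenes under other names were not, so the other members may share reads too.

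Complex III had 4 of 9 subunits called higher after LPS in BMDM, 44.4% where 28.3% of all genes were. Uqcrfs1 had 3149 and 3133 normalized reads in LPS-treated BMDM, against 1946 and 2151 in untreated BMDM (log2 change 0.62 ± 0.13, adjusted p = 0.0024), and this turned to -0.03 with equal totals without the ribosomal RNA gene Rn45s. Uqcrc2 had 3898 and 4209 normalized reads in LPS-treated BMDM, against 2746 and 2806 in untreated BMDM (log2 change 0.55 ± 0.08, adjusted p = 0.00018), but -0.07 both with equal totals and with quantile normalization. Cyc1 rose less (log2 change 0.22 ± 0.08, adjusted p = 0.043), with -0.39 under equal totals. As ratios within libraries, Uqcrfs1 to Uqcrc1 was 0.819 and 0.887 in LPS-treated and 0.550 and 0.593 in untreated BMDM, without overlap.

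Complex I was divided, with 4 of 36 subunits called higher and 4 lower. Each is 11.1%, below the 28.3% of all genes that were higher and the 29.5% that were lower. Ndufs4, an accessory subunit whose loss causes a Leigh-like disease in mice, had 1323 and 1223 normalized reads in LPS-treated BMDM, against 885 and 902 in untreated BMDM (log2 change 0.51 ± 0.13, adjusted p = 0.0081) and turned to -0.10 with equal totals. Ndufs3 (log2 change 0.23 ± 0.08, adjusted p = 0.033) rose on the deposited scale, and with equal totals stood at -0.38. The falls in Ndufs8 (log2 change -0.49 ± 0.09, adjusted p = 0.00074), Ndufs7 (log2 change -0.29 ± 0.09, adjusted p = 0.014), Ndufv3 (log2 change -0.27 ± 0.10, adjusted p = 0.038) and Ndufb10 (log2 change -0.26 ± 0.10, adjusted p = 0.043), named after their values were seen, were also called in resident macrophages. Atp5sl was the fifth member called lower in both origins, and Ndufs3 was called lower in resident cells and higher in BMDM.

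In complex IV, 3 of 15 subunits were called higher on the deposited scale, 20% where 28.3% of all genes were. Cox7a2 had 2969 and 2667 normalized reads in LPS-treated BMDM, against 2033 and 1960.5 in untreated BMDM (log2 change 0.49 ± 0.14, adjusted p = 0.011) and Cox6c had 3926 and 3583 normalized reads in LPS-treated BMDM, against 2899 and 2948 in untreated BMDM (log2 change 0.36 ± 0.13, adjusted p = 0.039), with -0.12 and -0.25 under equal totals. In the ATP synthase 6 of 15 were called higher, 40% where 28.3% of all genes were. Among them Atp5b had 22069.6 and 21496 normalized reads in LPS-treated BMDM, against 16335 and 16609.5 in untreated BMDM (log2 change 0.40 ± 0.09, adjusted p = 0.0027). Atp5a1 had 18718 and 18902 normalized reads in LPS-treated BMDM, against 14252 and 14542 in untreated BMDM (log2 change 0.39 ± 0.09, adjusted p = 0.003). With equal totals Atp5b stood at -0.21 and Atp5a1 at -0.23. Atp5c1 and Atp5o each rose by 0.23 on the deposited log2 scale, and each stood at -0.38 with equal totals.

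Complex II moved apart within itself. Sdhb had 2808 and 2712 normalized reads in LPS-treated BMDM, against 3533 and 3972 in untreated BMDM and fell after LPS (log2 change -0.44 ± 0.09, adjusted p = 0.0023) under each of the 25 alternatives, while Sdha, with 6107 and 6295 normalized reads in LPS-treated BMDM, against 5647 and 5587 in untreated BMDM, was not called. The Sdhb to Sdha ratio was 0.460 and 0.431 in LPS-treated and 0.626 and 0.711 in untreated BMDM. In resident macrophages this ratio was 0.468, 0.394 and 0.390 with LPS and 0.454, 0.466 and 0.442 without, and there the groups overlapped. Sdhaf1, which helps insert the iron-sulphur clusters of Sdhb, had 95.6 and 92.1 normalized reads in LPS-treated BMDM, against 278 and 252 in untreated BMDM, the largest fall of any member (log2 change -1.49 ± 0.14, adjusted p = 7.6e-06). In resident cells Sdhaf1 had 208, 195 and 211 normalized reads in LPS-treated resident macrophages, against 256, 222 and 238 in untreated ones without overlap, but was not called. Of its exon bases 69.6% overlap an opposite-strand gene, E130208F15Rik, so its reads cannot be assigned to a strand.

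Called lower after LPS in BMDM were 2 of 7 complex I assembly factors, 1 of 4 complex II assembly factors, and Atp5s and Atp5sl, with none called higher. Atp5s and Atp5sl are classed as ATP synthase accessory genes by symbol only. The first of these shares, 28.6%, was close to the 29.5% of all genes that were lower. Atp5sl had 172 and 152 normalized reads in LPS-treated BMDM, against 366 and 398 in untreated BMDM (log2 change -1.23 ± 0.15, adjusted p = 4.8e-05), and Ndufaf7, a methyltransferase needed for complex I assembly, had 173 and 182 normalized reads in LPS-treated BMDM, against 354 and 339 in untreated BMDM (log2 change -0.96 ± 0.23, adjusted p = 0.0045). Ndufaf4, a complex I assembly factor named after its value was seen, had 236 and 242 normalized reads in LPS-treated BMDM, against 415 and 389 in untreated BMDM (log2 change -0.74 ± 0.16, adjusted p = 0.0023). Atp5s, a low-level accessory gene, had 55.5 and 37.9 normalized reads in LPS-treated BMDM, against 90.2 and 78.6 in untreated BMDM (log2 change -0.86 ± 0.33, adjusted p = 0.045), and 8 of the 24 alternatives that tested it did not call it. The falls of Sdhb, Sdhaf1, Atp5sl and Ndufaf7 were called in all 25 alternatives.

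**Figure D4:**
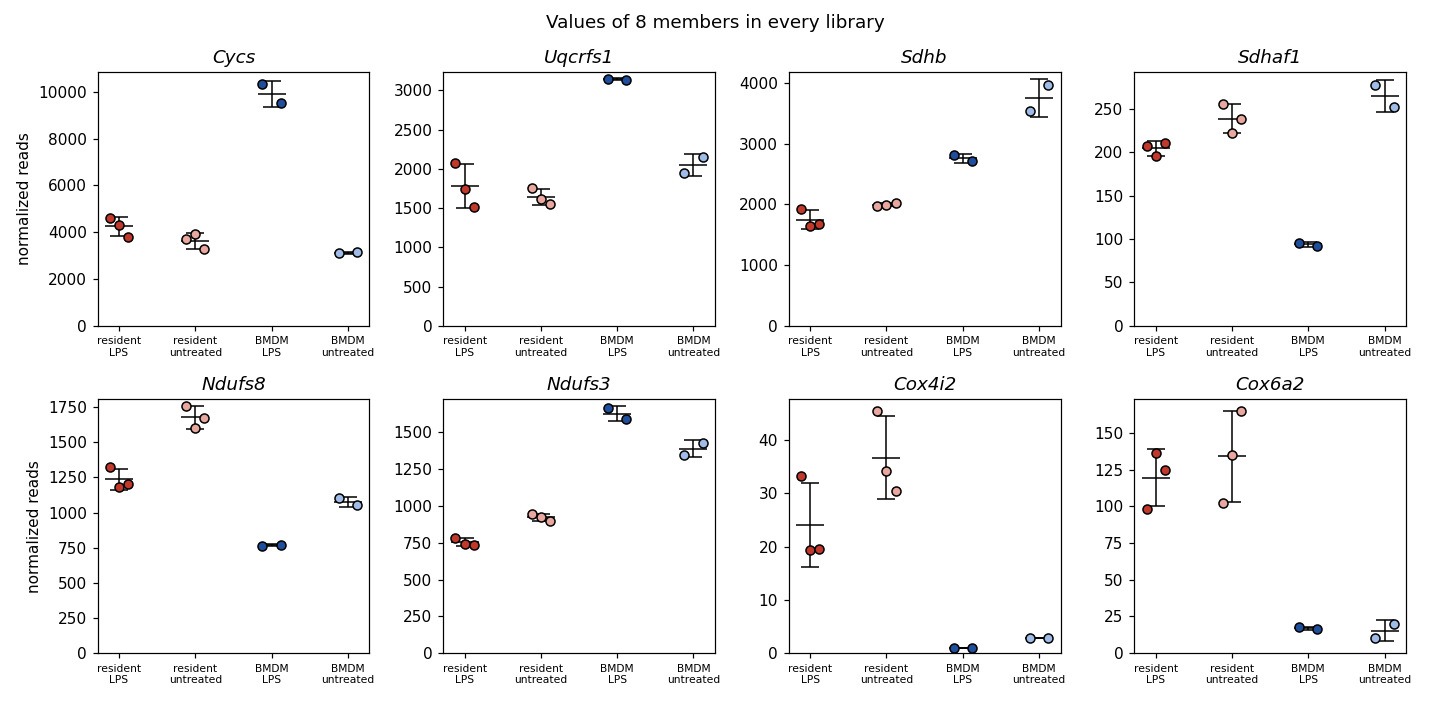
Normalized reads (y axes, from 0) of 8 members in every library, with groups in the order LPS-treated resident, untreated resident, LPS-treated BMDM and untreated BMDM. Points are libraries and bars are the group mean ± SD. Cycs is highest in LPS-treated BMDM at 10318 and 9505, Sdhaf1 is lowest there at 95.6 and 92.1, and Cox4i2 and Cox6a2 are low in all BMDM libraries.

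The responses of the origins were compared directly by the interaction term, resident minus BMDM. It called 20 members lower and 4 higher, 21.3% and 4.26%, where 22.8% of all genes were lower and 19% higher (41.8% in all). The share called lower was close to that of all genes and the share called higher was below it. The largest negative difference was that of Cycs (log2 difference -1.44 ± 0.14, adjusted p = 2.3e-05), which was called under all 24 alternatives that gave a value. Sdhaf1 (log2 difference 1.27 ± 0.18, adjusted p = 0.0003) had the largest positive one, followed by Ndufaf7 (log2 difference 0.95 ± 0.30, adjusted p = 0.026), Ndufaf4 (log2 difference 0.73 ± 0.20, adjusted p = 0.016) and Atp5sl (log2 difference 0.70 ± 0.19, adjusted p = 0.015). The call of Sdhaf1 held under all 24 alternatives, that of Ndufaf7 was lost in 7 and those of Ndufaf4 and Atp5sl in 3 each. These 4 kept their sign under the 5 scalings.

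Of the 20 members with a lower response in resident cells, Cycs and Cox5a kept their sign under the 5 scalings and the other 18 changed it under at least 1. Cox5a, a nuclear subunit of complex IV, had 2774, 2254 and 2005 normalized reads in LPS-treated resident macrophages, against 3239, 3129 and 2753 in untreated ones. In BMDM it had 3438 and 3088 normalized reads in LPS-treated BMDM, against 2503 and 2831 in untreated BMDM. The call of its difference of responses (log2 difference -0.68 ± 0.19, adjusted p = 0.015) was lost in 5 of 24 alternatives. The counts changed with single libraries. The number of lower members was 31 without resident LPS-treated replicate 1, 4 and 9 without BMDM LPS-treated replicate 1 and 2, and 7 and 8 without BMDM untreated replicate 1 and 2, and the number of higher members was 2 without any one BMDM library.

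**Figure D5:**
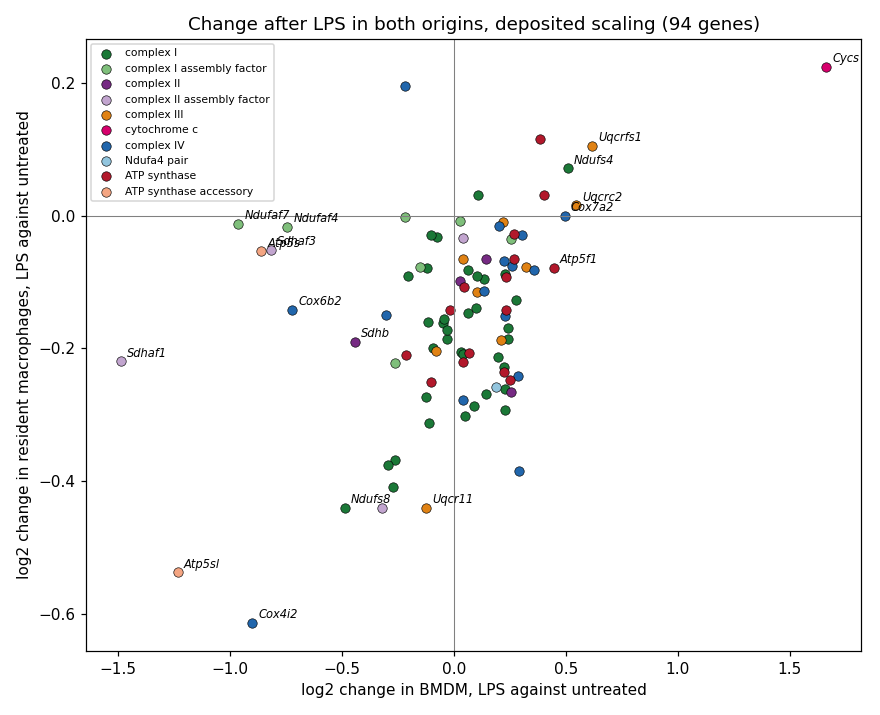
Log2 change after LPS in resident macrophages (y axis) against that in BMDM (x axis) for the 94 members, coloured by complex, on the deposited scaling. Each point is 1 gene. Cycs lies far to the right at 1.66, Sdhaf1 far to the left at -1.49, and the resident changes lie between -0.61 and 0.22.

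Promoters are shown for the 2 members with the largest changes after LPS in BMDM, Cycs and Sdhaf1, for Sdhb, which Sdhaf1 serves, and for Ndufs8, the complex I exception. Sequences are from RefSeq on GRCm38.p6, from 250 bases before the annotated start site to 25 after it, 5′ to 3′ on the strand of the gene. Capitals mark the motifs found, searched on both strands as listed after the sequences.
Cycs (chr6:50566545-50566819, minus strand): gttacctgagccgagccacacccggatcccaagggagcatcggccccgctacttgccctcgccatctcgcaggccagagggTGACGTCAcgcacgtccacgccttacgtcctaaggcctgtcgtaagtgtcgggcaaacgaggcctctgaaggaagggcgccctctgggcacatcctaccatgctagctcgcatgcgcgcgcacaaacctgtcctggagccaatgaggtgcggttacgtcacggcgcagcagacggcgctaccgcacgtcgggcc
Sdhaf1 (chr7:30322351-30322625, minus strand): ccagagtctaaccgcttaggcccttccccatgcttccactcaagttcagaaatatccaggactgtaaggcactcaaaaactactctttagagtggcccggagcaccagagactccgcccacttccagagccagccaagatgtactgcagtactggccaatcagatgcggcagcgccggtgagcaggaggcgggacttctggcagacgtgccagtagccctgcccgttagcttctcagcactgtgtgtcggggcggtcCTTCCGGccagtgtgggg
Sdhb (chr4:140961021-140961295, plus strand): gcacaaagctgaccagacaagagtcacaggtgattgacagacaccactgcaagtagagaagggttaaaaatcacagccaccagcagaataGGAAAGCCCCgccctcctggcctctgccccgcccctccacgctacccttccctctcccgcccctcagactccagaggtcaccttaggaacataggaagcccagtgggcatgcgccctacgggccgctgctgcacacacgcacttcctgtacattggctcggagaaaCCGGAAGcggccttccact
Ndufs8 (chr19:3912750-3913024, minus strand): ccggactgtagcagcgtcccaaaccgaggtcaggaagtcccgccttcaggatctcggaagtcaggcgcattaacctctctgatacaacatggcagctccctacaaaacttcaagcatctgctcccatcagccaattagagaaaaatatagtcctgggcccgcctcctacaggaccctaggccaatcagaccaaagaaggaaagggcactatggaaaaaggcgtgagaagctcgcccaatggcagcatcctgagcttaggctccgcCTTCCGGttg

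Cycs lies at chr6:50562563-50566538, Sdhaf1 at chr7:30321406-30323895, Sdhb at chr4:140961203-140979193 and Ndufs8 at chr19:3908863-3912774 in GENCODE. The printed Sdhaf1 window lies wholly inside the GENCODE span of that gene, so the RefSeq and GENCODE start sites of Sdhaf1 differ. The Cycs window held a cyclic AMP response element, TGACGTCA, that begins at base -169 from the start site. Sdhaf1, Sdhb and Ndufs8 each held the ETS motif CCGGAAG, on 1 strand or the other, at bases 7, 6 and 15, and Sdhb held 1 match to the NF-kB motif, on the other strand, at base -160. A match describes letters only and shows no binding.

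Of the 94 members 79 matched a RefSeq promoter table, with 85 windows of 250 bases before and 50 after the start. The NRF1 palindrome was in 8.24% of them, against 1.92% of the 13328 windows of genes in the expression table and 0.971% of all 32851 windows. The YY1 motif AAGATGGCG was in 10.6% (9 windows of 8 genes), against 2.81% and 1.40%, and CCGGAAG was in 23.5% (20 windows), against 16.3% and 8.86%. TGACGTCA was in 5.88% (5 windows), against 2.93% and 1.79%. The ERR motif TCAAGGTCA was in 2.35%, only 2 windows, against 0.248% and 0.423%. The NF-kB motif was in 1.18%, against 1.79% and 1.63%. The NRF1 motif and TGACGTCA read the same on both strands. Matches of different motifs were counted separately, also where they overlapped.

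Genes around the chain were examined by list, and those named here were picked after their values were seen. Of 38 assembly factors outside the symbol rule, LPS in BMDM called 10 higher and 11 lower, 26.3% and 28.9%, close to the 28.3% and 29.5% of all genes, with a median of -0.13 where that of all genes was -0.04. LPS in resident cells called 1 higher and 2 lower, 2.63% and 5.26% where 7.36% and 5.57% of all genes were, with a median of -0.18. Sco1, a copper chaperone of complex IV, had 1228 and 1225 normalized reads in LPS-treated and 288 and 294 in untreated BMDM, a log2 change of 2.07. Its relative Sco2 had 65.8 and 32.5 in LPS-treated and 281 and 265 in untreated BMDM, a log2 change of -2.53. Between untreated origins 5 of the 38 were higher and 21 lower in resident cells, and between LPS-treated origins 2 were higher and 26 lower, with medians of -0.43 and -0.57, against 0.08 and 0.03 for all genes. The shares were 13.2% higher and 55.3% lower in untreated cells, where 39.2% and 32.6% of all genes were, and 5.26% and 68.4% in LPS-treated cells, where 36.7% and 34.5% were.

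Of 15 regulators of mitochondrial biogenesis 13 were in the table. Between untreated origins 8 were higher and 1 lower in resident cells, and between LPS-treated origins 5 were higher and 4 lower, with median log2 differences of 0.39 and 0.16. The shares were 61.5% higher and 7.69% lower in untreated cells, where 39.2% and 32.6% of all genes were, and 38.5% and 30.8% in LPS-treated cells, close to the 36.7% and 34.5% of all genes. LPS in BMDM called 6 higher and 5 lower, 46.2% and 38.5% where 28.3% and 29.5% of all genes were, with a median of 0.30. In resident cells it called 2 higher, 15.4% where 7.36% of all genes were, with a median of 0.06. Gabpb1, a subunit of the ETS factor NRF2/GABP, had 1541, 1537 and 1532 normalized reads in LPS-treated and 1184, 1187 and 1211 in untreated resident cells, against 1474 and 1434 in LPS-treated and 481 and 494 in untreated BMDM. It rose after LPS in resident cells by 0.36 and in BMDM by 1.57 on the log2 scale. Of 20 genes of the tricarboxylic acid cycle and its pyruvate entry, 4 were higher and 10 lower in untreated resident cells than in untreated BMDM, and LPS called 9 higher and 4 lower in BMDM, against 1 lower in resident cells, with median log2 differences of -0.24 between untreated origins, -0.01 after LPS in BMDM and -0.02 after LPS in resident cells. The shares were 20% higher and 50% lower between untreated origins, where 39.2% and 32.6% of all genes were, 45% and 20% after LPS in BMDM, where 28.3% and 29.5% were, and 5% lower after LPS in resident cells, where 5.57% were.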

How the data were processed

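The series holds 10 RNA-seq libraries in 1 deposited table with libraries in rows and 13809 genes in columns. Per the submitters' processing notes, reads were aligned with HISAT 0.1.7 to mm10. The deposited values are a signal, read counts divided by 1 factor per library with a floor of 1. Dividing by each library's step gave whole reads within 0.02 for 100% of the low values checked, which is how depth was recovered. The sources used here name neither the counter nor its strand setting.

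From the deposited signal, log2(value + 1) was computed, genes reaching 10 in at least 2 libraries were kept (13755, with 54 left out), and limma 3.58.1 in R 4.3.3 fitted 4 group means to all 10 libraries with a variance trend and 6 residual degrees of freedom. Adjusted p-values are Benjamini-Hochberg values over all genes within each of 5 comparisons. The fit was run on simulated data for every comparison except the interaction. It recovered 0% to 4% of 1.25-fold, 14% to 34% of 1.5-fold, 80% to 90% of 2-fold and 98% to 100% of 4-fold changes. False calls made up 2.78% to 7.41% of calls. The simulated spread and number of changed genes differ from these data, so these shares need not carry over. A gene that was not called may still differ. Python 3.11.15, pandas 2.3.3 and matplotlib 3.10.9 made summaries and figures. Lengths, positions and overlaps came from GENCODE vM21, in which all 94 members were found. Replicate libraries of a group all differed by more than sampling noise. The median coefficient of variation of the members was 9.53% in LPS-treated and 7.27% in untreated resident libraries. In BMDM it was 3.28% with LPS and 2.89% without. The fit shares 1 spread per gene over all groups, so its p-values do not reflect this difference between the origins.

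Named genes were core subunits, isoforms, the 4 highest and 4 lowest called members of each comparison with a mean of at least 20, called complex II members, and all called members where 5 or fewer were called in a direction. Core subunits and isoforms too counted as named results only in comparisons where they were called. The values of 1 named member are not reported here. Members and lists were chosen with earlier results of these data known. Alternatives covered pseudocount, filter, scaling, model and single libraries.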

Additional observations from a re-analysis of the deposited data

Results flagged for a closer look

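The interaction term of the limma fit called 16 genes that were named for it. Genes were named for a comparison only where called, so this count follows from that choice. Of the 94 members 25.5% were called for the interaction, where 41.8% of all genes were. As resident minus BMDM log2 change, the difference was -1.44 for Cycs, -0.68 for Cox5a, -0.53 for Uqcrc2, -0.53 for Cox6b1, -0.52 for Sdhd, -0.52 for Ndufs3, -0.51 for Uqcrfs1, -0.49 for Cox7a2, -0.45 for Ndufa4, -0.38 for Atp5c1, -0.37 for Atp5b and -0.33 for Atp5o. It was 0.70 for Atp5sl, 0.73 for Ndufaf4, 0.95 for Ndufaf7 and 1.27 for Sdhaf1. Of the 12 negative differences, those of Cycs and Cox5a kept their sign under the 5 scalings, and the 4 positive ones all kept theirs.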

How the results depend on the processing

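The 95 named gene results were all called in the limma fit above, so an alternative could keep or lose a call but not add 1. Over 25 alternatives, 24 planned and 1 (voom weights) chosen after seeing the data, they gave 2352 values. Of these 2122 kept their direction and their side of the threshold, 178 kept only the direction and 52 changed sign, all under 3 scalings. Under quantile normalization, the change after LPS in BMDM was -0.034 for Ndufs3, -0.27 for Cyc1, -0.25 for Cox6c, -0.46 for Atp5a1, -0.43 for Atp5b, -0.46 for Atp5c1, -0.20 for Atp5o and -0.066 for Uqcrc2. The difference between untreated origins was -0.14 for Uqcrc2. The difference between LPS-treated origins was 0.052 for Atp5a1. The difference of responses was 0.027 for Sdhd, 0.29 for Atp5b, 0.27 for Atp5c1, 0.085 for Atp5o, 0.11 for Ndufa4, 0.056 for Cox6b1 and 0.035 for Uqcrc2. With equal totals, the change after LPS in BMDM was -0.38 for Ndufs3, -0.39 for Cyc1, -0.25 for Cox6c, -0.23 for Atp5a1, -0.21 for Atp5b, -0.38 for Atp5c1, -0.38 for Atp5o, -0.12 for Cox7a2, -0.066 for Uqcrc2 and -0.10 for Ndufs4. The difference between LPS-treated origins was 0.052 for Atp5a1. The difference of responses was 0.12 for Atp5b, 0.11 for Atp5c1, 0.16 for Atp5o and 0.042 for Ndufa4. With equal totals without Rn45s, the change after LPS in BMDM was -0.42 for Ndufs3, -0.027 for Uqcrfs1, -0.43 for Cyc1, -0.29 for Cox6c, -0.26 for Atp5a1, -0.24 for Atp5b, -0.41 for Atp5c1, -0.41 for Atp5o, -0.15 for Cox7a2, -0.10 for Uqcrc2 and -0.14 for Ndufs4. The difference between LPS-treated origins was 0.063 for Atp5a1. The difference of responses was 0.0043 for Ndufs3, 0.0030 for Sdhd, 0.013 for Uqcrfs1, 0.15 for Atp5b, 0.15 for Atp5c1, 0.20 for Atp5o, 0.079 for Ndufa4 and 0.031 for Cox7a2.

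Counts of called members moved as follows. LPS in resident macrophages (8 lower) gave 13 under quantile normalization, 34 and 35 with equal totals with and without Rn45s, 1 with only the groups compared, 21 with array weights, 21 with a term for Y-linked transcripts and 26 without those libraries. LPS in BMDM (18 higher) gave 3 under quantile normalization, 1 with equal totals with and without Rn45s, 35 with only the groups compared, 36 with array weights and 28 without the Y-carrying libraries. Its lower count (10) gave 52, 81 and 82 under the 3 scalings, 17 with only the groups compared and 18 with array weights. Untreated origin (4 higher) gave 8 with array weights, and LPS-treated origin (6 higher) gave 10 and 11 with equal totals with and without Rn45s. The difference of responses (4 higher) gave 12, 23 and 31 under the 3 scalings, and its lower count (20) gave 1 under each of them, 42 with array weights, 35 with a Y term and 36 without the Y-carrying libraries. The cause of these changes was not tested. Leaving out 1 library at a time gave 5 to 17 lower and 0 to 0 higher for resident LPS, 7 to 23 higher and 6 to 12 lower for BMDM LPS, 3 to 5 higher and 55 to 67 lower for untreated origin, 5 to 6 higher and 68 to 80 lower for LPS-treated origin, and 2 to 4 higher and 4 to 31 lower for the difference. A lone remaining BMDM library was assumed to vary like the other groups. No paired analysis was possible because the groups share no replicate numbers in the labels, apart from the term for Y-linked transcripts, which replicate 1 of both resident groups carried. The planned count tests on whole reads were not run. BMDM groups of 2 libraries and members near the floor, such as Cox4i2, limit the precision.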
